A study of Homo sapiens with 8 samples.

Results

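The insulin-like growth factor (IGF) genes described here are the ligands IGF1 and IGF2, the receptor IGF1R and the binding proteins IGFBP1, IGFBP2, IGFBP3, IGFBP4, IGFBP5, IGFBP6 and IGFBP7. Their rows were found by gene symbol, and the family was chosen with earlier results of these data known. The 10 genes are 10 of the 27945 genes in the count table. The assay was fastGRO-seq, a nuclear run-on: engaged RNA polymerases in isolated nuclei add 4-thio-UTP to their transcripts, and the RNA so labelled is captured through biotin and sequenced, which gives nascent rather than mature RNA. The samples were 8 libraries from IMR90 cells, primary human lung fibroblasts grown under low oxygen, in 4 groups of 2 libraries each. The table holds raw read counts over whole genes, introns included, on the hg19 genome. Library totals ran from 14897360 to 20306299 counts, of which 86.2% to 92.5% fell in 21 ribosomal RNA entries, so that 1513930 to 2048475 counts per library were left for all other genes. The ribosomal share differed between groups, at 89.9% and 89.9% in control, 92.5% and 92.1% in shControl, 88.4% and 86.2% in shMETTL3 and 90.4% and 91.3% in shMETTL14. The TMM scaling factors, in the same order, were 1.10 and 1.10, 0.747 and 0.806, 1.11 and 1.27, and 1.04 and 0.942. The part of this share in the group differences was not tested. With the ribosomal entries removed before TMM scaling, the counts of called IGF genes were the same. Scaled by library totals alone, ribosomal counts included, they changed in senescence, in each knockdown against shControl and in shMETTL14 against control, as given below. In the other comparisons they stayed the same.

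The control group is labelled wild type and carries no label for a short hairpin RNA (shRNA). The senescent groups expressed H-RASG12V fused to the estrogen receptor (ER:RAS), which is switched on by 4-hydroxytamoxifen (4-OHT), and carried an shRNA that was either a control (shControl) or directed at METTL3 (shMETTL3) or METTL14 (shMETTL14), the catalytic subunit and its partner in the m6A RNA methyltransferase complex. The study's general protocol used 100 nM 4-OHT and harvest on day 6, and the labels of these libraries give neither. The design text of the series names METTL4 where the sample labels and the paper name METTL14, and the labels were followed. Senescence and shRNA infection cannot be told apart between control and shControl, and each target was represented by a single shRNA group. The comparisons of each knockdown with shControl use the same shControl libraries, as does the comparison of senescence with control. The Drosophila spike-in of the protocol was not used here, and a shift common to the whole transcriptome is therefore invisible in these values.

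IGF1 and IGF2 are secreted growth factors that act through IGF1R, a receptor tyrosine kinase that signals to the PI3K-AKT and RAS-ERK pathways. The IGF-binding proteins carry the ligands outside the cell, prolong their life or keep them from the receptor, and release them when proteases cut the binding protein. Several binding proteins, IGFBP3, IGFBP5 and IGFBP7 among them, are known components of the senescence-associated secretory phenotype, the set of factors that senescent fibroblasts release.

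The targeted genes were read first. METTL3 gave 80 and 78 counts in control, 77 and 47 in shControl, 16 and 19 in shMETTL3 and 73 and 56 in shMETTL14. Both shMETTL3 libraries were below all others. The log2 fold change of METTL3 in shMETTL3 against shControl was -2.04 (standard error 0.308, edgeR quasi-likelihood test, Benjamini-Hochberg adjusted p = 1.8e-05). METTL14 gave 60 and 55 counts in control, 24 and 28 in shControl, 41 and 48 in shMETTL3 and 18 and 14 in shMETTL14. The shMETTL14 libraries were the lowest, but shControl was already low, and the change against shControl was -0.86 (standard error 0.344, adjusted p = 0.076), which did not pass the threshold of 0.05. Against control, METTL14 in shMETTL14 changed by -1.62 (adjusted p = 0.00012). Nascent counts of a targeted gene do not measure the mature mRNA on which an shRNA acts.

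Markers of the labelled cell type were present. All 11 fibroblast markers examined were tested, with FN1 the most abundant at 10634 and 10136 counts in control. In senescence 8 of them were lower and 1 was higher, after METTL14 knockdown 9 of the 11 were lower, and after METTL3 knockdown 2 were higher and 2 lower. The summed normalized count of the fibroblast list was 33471 and 31329 in control, 21811 and 23505 in shControl, 29785 and 25449 in shMETTL3 and 14135 and 16873 in shMETTL14. Most markers of other cells had few counts. Among 8 epithelial markers, 5 had at most 3 counts in every library, EPCAM, CDH1, SFTPC, SFTPB and NKX2-1 (the last at 0 throughout), and the summed normalized count ran from 22.8 to 80.0 per library with KRT18 the most abundant. Among 5 endothelial markers PECAM1, CDH5 and KDR stayed at or below 3 counts, and the sum, led by TEK, was at most 116 normalized counts. Among 5 immune markers CD14, CD3E and MS4A1 stayed at or below 3, the last pair at 0, and the sum, led by CD68, ran from 15.1 to 74.5. Of 4 hepatocyte markers, ALB, APOA1 and TTR were at most 3, APOA1 and TTR at 0, and the sum, led by SERPINA1, ran from 0 to 24.0.

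The most abundant of these other markers differed between groups. CD68 was higher in senescence (2.05, adjusted p = 2.6e-05) and lower in shMETTL3 than in shControl (-0.84, adjusted p = 0.04), the latter called in 9 of 16 alternatives (adjusted p from 0.0032 to 0.56; -0.58 without shControl library 1 and -0.50 without shMETTL3 library 2). TEK was lower in senescence (-1.04, adjusted p = 0.002; -0.89 and not called without shControl library 1) and in shMETTL14 (-1.27, adjusted p = 0.0048; not called without shControl library 2, at -1.13, or shMETTL14 library 1, at -0.85, and -1.90 without shMETTL14 library 2). SERPINA1 gave 0 and 0 counts in control, 2 and 5 in shControl, 1 and 0 in shMETTL3 and 24 and 21 in shMETTL14 (2.49 against shControl, adjusted p = 0.005, not called without shControl library 1, at 2.03, or shMETTL14 library 1, at 2.41, or 2, at 2.55, 3.22 without shControl library 2, and without an adjusted p from DESeq2). It was also called higher in shControl than in control (adjusted p = 0.021), which held in 9 of 14 alternatives. That call ended with DESeq2 (adjusted p = 0.058), without either control library, and without shControl library 2 or shMETTL14 library 1.

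Senescence markers were read as genes known to rise in senescent cells (CDKN1A, CDKN2A, CDKN2B and the cytokines IL6, CXCL8, IL1A and IL1B) and 4 known to fall (LMNB1, MKI67, CCNA2 and HMGB2). In senescence CDKN2B and the 4 cytokines were higher, for example CXCL8 (log2 fold change 7.12, adjusted p = 4.7e-20), as was CDKN1A (1.12, adjusted p = 1.1e-06), and CDKN2A was not called (0.50, adjusted p = 0.18). Of the 4 known to fall, 2 were lower, LMNB1 (-2.28, adjusted p = 1.3e-05) and MKI67 (-2.06, adjusted p = 2e-07). The knockdowns did not move these genes in a single direction. Against shControl, all 4 cytokines were lower in shMETTL3 and in shMETTL14, while CDKN2B was higher in shMETTL3 (0.94, adjusted p = 0.00014) and CDKN1A was higher in shMETTL14 (1.01, adjusted p = 6.5e-06). In shMETTL14 the cytokine calls of IL6 and IL1A ended with library size alone (-0.53 and -0.28) and without shControl library 1 (-0.75 and -0.59), and that of IL1A also with DESeq2 (-0.63) and without shMETTL14 library 1 (-0.65). Of the 4 genes known to fall, 2 were lower in shMETTL3 than in shControl. All 4 were lower in shMETTL14 than in shControl, where only the MKI67 call held whichever library was left out. MKI67 gave 25 and 53 counts in shControl, 1 and 0 in shMETTL3 (ratio 0.011, counting interval 0.000276 to 0.0633) and 1 and 3 in shMETTL14 (0.0459, 0.0122 to 0.122).

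Markers also differed between the knockdowns. In shMETTL14 against shMETTL3, 1 fibroblast marker was higher and 7 were lower (median -1.08), and of the senescence markers known to rise CDKN1A and the 4 cytokines were higher and CDKN2B was lower (-0.82, adjusted p = 0.00027). The CXCL8 call among these (0.45, adjusted p = 0.02) held in 12 of 16 alternatives. It ended with library size alone (0.18, adjusted p = 0.41) and in the fit of these groups alone (0.47, adjusted p = 0.067). It also ended without shMETTL3 library 1 (0.28) or shMETTL14 library 1 (0.33). None of the 4 markers known to fall was called. The epithelial markers with enough counts were both higher, KRT18 at 1.63 (adjusted p = 0.0014) and KRT8 at 1.38 (adjusted p = 0.014). The KRT8 call ended with DESeq2 (1.37) and without shMETTL14 library 1 (1.34) or 2 (1.41), with adjusted p from 0.01 to 0.11. Neither of these was called in senescence or in a knockdown against shControl. TEK was lower (-1.52, adjusted p = 0.00032; -2.13 without shMETTL14 library 2). SERPINA1 was higher (adjusted p = 4.1e-05), with a ratio of 46.8 whose counting interval ran from 7.98 to 1890, and DESeq2 gave it no adjusted p. The part of these shifts in the values of the IGF genes was not tested. In whole cultures, fewer cells of a type and less RNA per cell cannot be told apart.

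Of the 10 genes, 7 had enough counts to be tested and 3 did not. The ligand IGF1 gave 2 and 0 counts in control, 3 and 1 in shControl, 2 and 1 in shMETTL3 and 5 and 2 in shMETTL14, which is 16 counts over 8 libraries (95% Poisson interval 9.15 to 26.0). IGFBP1, a binding protein made chiefly by liver and decidua, had 2 counts in a single shControl library and 0 in the other 7. IGFBP2 gave 8 and 4, 5 and 5, 3 and 0, and 6 and 1 counts in the same order of groups, 32 in all (21.9 to 45.2). The 3 genes were not tested between groups. The ratio of IGFBP2 in shMETTL3 was 0.258 against shControl (counting interval 0.0456 to 1) and 0.281 against control (0.0508 to 1.04), with both shMETTL3 libraries below. The ratio of IGF1 in shMETTL14 was 4.09 against control (0.778 to 40.3) and 2.43 against shMETTL3 (0.554 to 14.5). Both shMETTL14 libraries were above in normalized counts, whereas the raw counts tied at 2. Against shControl the IGF1 ratio was 1.57 (0.398 to 7.29), and the libraries overlapped. Intervals cover counting error only, since reads were not marked with molecular identifiers.

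Compared per length, the tested genes spread over 2 orders of magnitude. Mean normalized counts per kilobase over the 8 libraries were 170.0 for IGFBP5, 41.0 for IGFBP4, 11.2 for IGF2, 8.05 for IGFBP6, 5.98 for IGFBP3, 4.66 for IGFBP7 and 1.52 for IGF1R, where a normalized count is the raw count scaled to the mean effective library size. Of all 12844 tested genes, 0.685% were above IGFBP5 on this scale, 2.39% above IGFBP4 and 53.2% above IGF1R. The order was not the same in every group. IGFBP5 was the highest and IGFBP4 the next in each of the 8 libraries, whereas the middle genes changed places: IGF2 had 2.35 ± 1.48 counts per kilobase in control and 20.8 ± 4.60 in shControl (mean ± SD, n = 2), and IGFBP6 and IGFBP3 exchanged their order between the same groups.

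**Figure D1:**
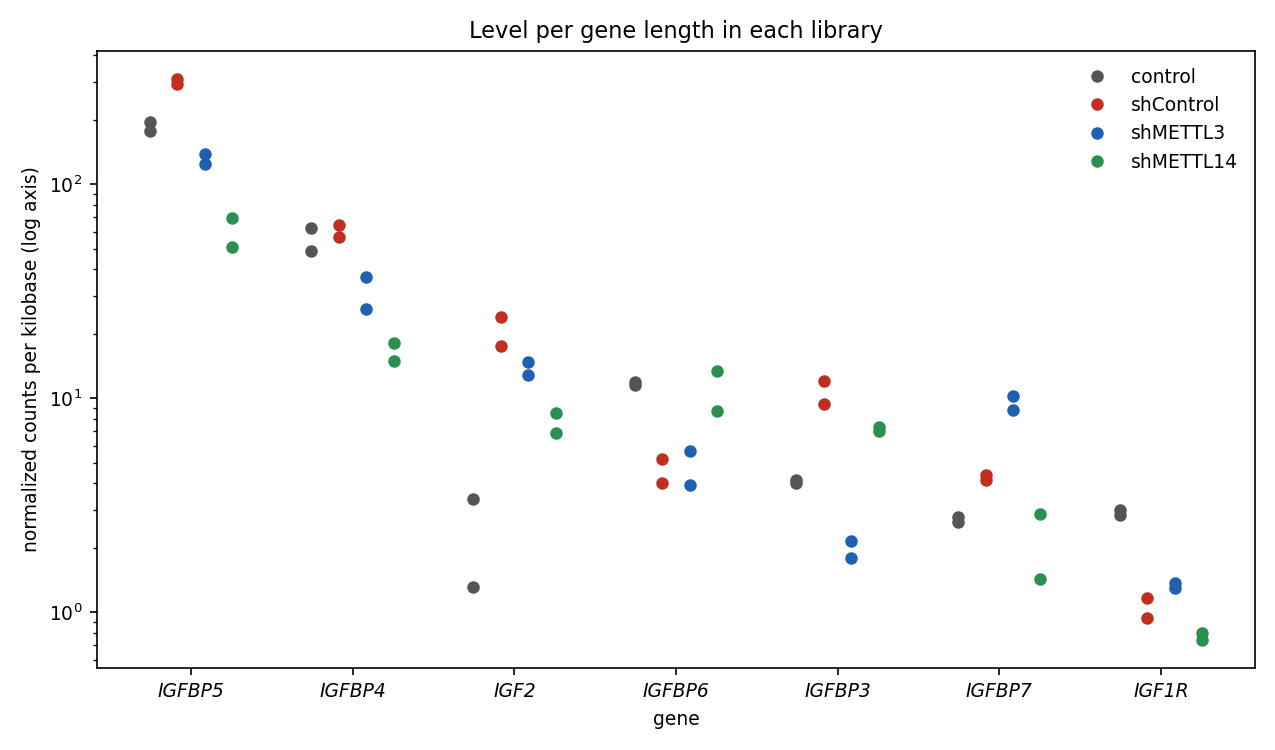
Normalized counts per kilobase of gene (log axis) for the 7 tested genes, with 1 point per library and colours for the 4 groups. IGFBP5 lies highest in every library and IGF1R lies lowest in each of the 6 senescent libraries, and the group means of IGF2 run from 2.35 to 20.8.

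**Figure D2:**
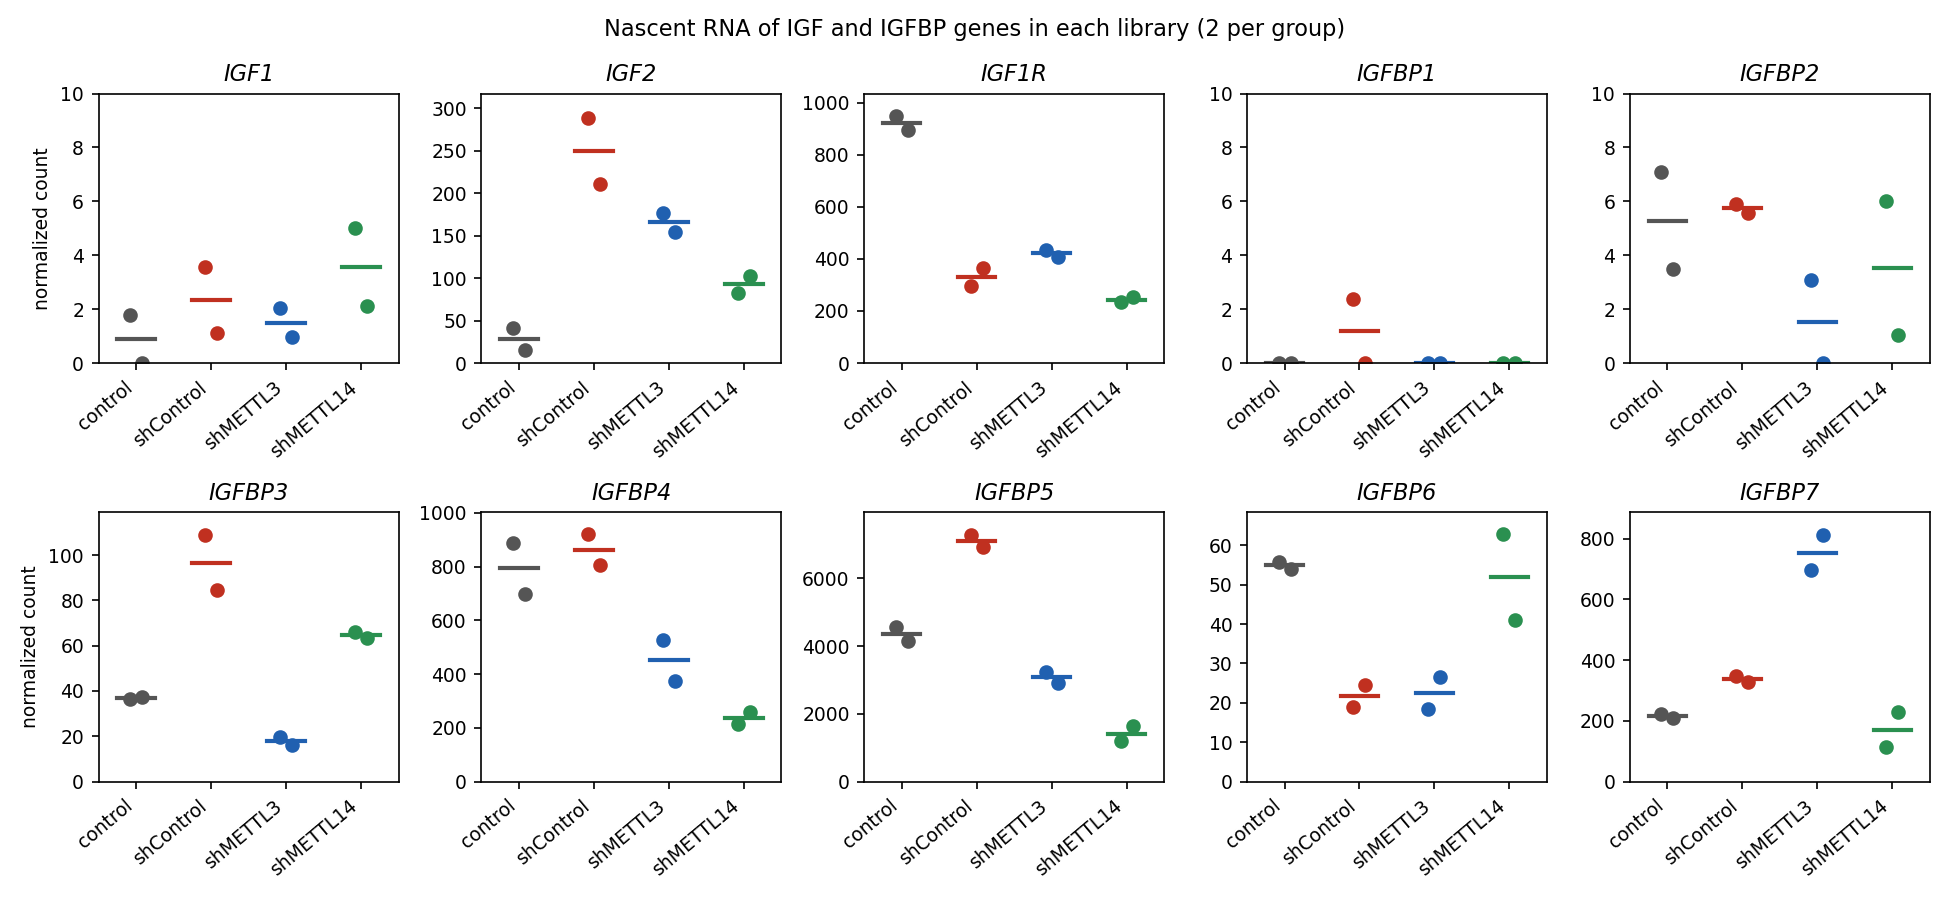
Normalized counts of the 10 genes, with 1 point per library and a bar at the mean of the 2 libraries of each group. Axes start at 0 and differ between genes; IGF1, IGFBP1 and IGFBP2 stay below 10.

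Before the genes are taken in turn, the calls for the family are given with their background. In shControl against control, 4 of the 7 tested genes were higher and 2 lower (adjusted p below 0.05), where 13.3% of all tested genes were higher and 13.3% lower. In shMETTL3 against shControl 1 was higher and 4 were lower, beside 12.3% and 11.2% of all genes. In shMETTL14 against shControl 1 was higher and 5 were lower, beside 9.15% and 12% of all genes. Between the knockdowns, shMETTL14 against shMETTL3, 2 were higher and 5 lower, beside 16.5% and 18.7%. Against control, shMETTL3 had 2 higher and 5 lower, beside 20.1% and 20.1%, and shMETTL14 had 2 higher and 3 lower, beside 19.7% and 20.5%.

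The 7 genes had a median log2 fold change of 0.65 in senescence, of -0.59 with shMETTL3 and of -0.99 with shMETTL14, against medians of all genes of -0.03, -0.03 and 0.00. When libraries were scaled by their total counts alone, the median of all genes moved by -0.50, 0.61 and 0.35 in these comparisons, and the family medians became 0.15, 0.03 and -0.66, so the direction after METTL3 knockdown flips under that scaling unless it is read against the shifted median of 0.58. Read against the shifted medians, IGFBP4 in senescence was 0.15 and IGF2 in shMETTL3 was -0.55, in the same direction as with TMM. Under DESeq2 size factors, upper-quartile scaling or removal of ribosomal RNA, the family medians stayed within 0.60 to 0.68, -0.61 to -0.57 and -0.99 to -0.97. The p-values rest on a spread estimated from all 8 libraries together, at 2 libraries per group, and cover no wider population.

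**Figure D3:**
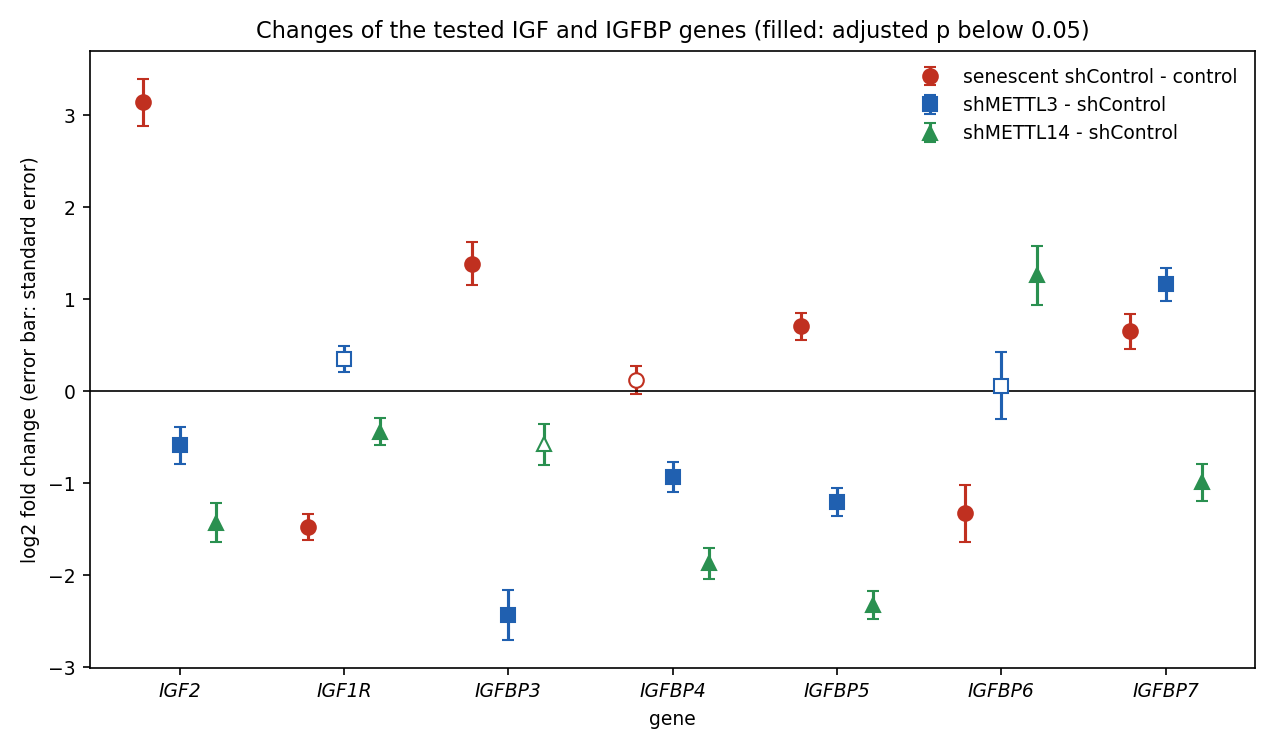
Log2 fold change (vertical axis) of the 7 tested genes in 3 comparisons, with bars of 1 standard error and filled symbols where the adjusted p was below 0.05. IGF2 has the highest value, 3.14 in senescence, and IGFBP3 the lowest, -2.43 after METTL3 knockdown; scaled by library size alone, IGF2 after METTL3 knockdown moves from -0.59 to 0.03 and IGFBP4 in senescence from 0.12 to -0.38.

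IGF2, the imprinted fetal growth factor, lies on chromosome 11 (2150342 to 2162354, minus strand), and 51.2% of its span is exonic in the annotation. It gave 46 and 18 counts in control, 244 and 189 in shControl, 172 and 163 in shMETTL3 and 83 and 97 in shMETTL14. Every senescent library was above both control libraries, shControl was the highest group and shMETTL14 the lowest of the senescent groups, with no overlap between any pair of groups. Mean normalized counts were 28.2 ± 17.7 in control and 249 ± 55.2 in shControl (SD, n = 2). IGF2 was 8.82-fold higher in senescence (log2 3.14, standard error 0.254, adjusted p = 1.9e-10), and the control libraries differed so much that the value was 3.98 without control library 1. After METTL14 knockdown IGF2 was 2.69-fold lower (log2 -1.43, standard error 0.217, adjusted p = 1.8e-05), and it was still 1.71 above control (adjusted p = 1.8e-05; 2.55 without control library 1). After METTL3 knockdown the change was -0.59 (standard error 0.201, adjusted p = 0.034). That call held in 12 of 16 alternative analyses (adjusted p from 0.0053 to 0.93). It ended with DESeq2 (-0.57), without shControl library 1 (-0.35), without shMETTL3 library 2 (-0.52) and with library size alone (0.03). The knockdowns differed by -0.84 (standard error 0.222, adjusted p = 0.0042), which was -0.71 and not called without shMETTL14 library 1 (adjusted p from 4.4e-05 to 0.07). Against control, IGF2 in shMETTL3 was 2.55 higher (adjusted p = 8.4e-09; 3.38 without control library 1).

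The counted span of IGF2 lies within the readthrough gene INS-IGF2, of which it makes up 37.4%. INS-IGF2 had the same counts as IGF2 in each of the 8 libraries, so the counts of the longer gene all came from the shared span, and INS had 0. The antisense gene IGF2-AS, which shares 613 bases with IGF2, had 2 counts in a single shControl library. H19, the maternally expressed partner of IGF2 in the imprinted region, was at 0 in every library. The nearest tested genes, with before and after taken in chromosome coordinates, were MRPL23, 172.5 kb before IGF2, and CD81-AS1, 187.6 kb after it, and neither was called in senescence (-0.39 and 0.06) or after either knockdown.

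IGF1R spans chromosome 15 from 99191768 to 99507759 on the plus strand, of which 95.6% is intronic. The receptor gave 1073 and 1029 counts in control, 250 and 329 in shControl, 423 and 430 in shMETTL3 and 235 and 240 in shMETTL14. Control stood far above the senescent groups, and among these shMETTL3 was the highest and shMETTL14 the lowest, without overlap in normalized counts. Means were 923 ± 38.3, 331 ± 49.9, 421 ± 18.2 and 244 ± 12.6 normalized counts (SD, n = 2). IGF1R was 2.79-fold lower in senescence (log2 -1.48, standard error 0.139, adjusted p = 3.4e-09). The knockdowns differed from each other, with shMETTL14 below shMETTL3 by -0.79 (standard error 0.145, adjusted p = 0.00011). Against shControl, the value in shMETTL3 was 0.35 and not called (adjusted p = 0.079), and with library size alone it was 0.96 and called. In shMETTL14 it was -0.44 (standard error 0.148, adjusted p = 0.033). The shMETTL14 call held in 11 of 16 alternatives (adjusted p from 0.0097 to 0.73) and ended with DESeq2 (-0.44), with library size alone (-0.10), without shControl library 2 (-0.28) and without shMETTL14 library 1 (-0.41) or 2 (-0.50). Against control, IGF1R was lower in shMETTL3 (-1.13, adjusted p = 1.3e-07) and in shMETTL14 (-1.92, adjusted p = 1.8e-11).

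The noncoding RNA gene IRAIN lies on the opposite strand and shares 2683 bases with IGF1R, which is 50.1% of IRAIN and 0.849% of the receptor gene, and reads from these bases may count toward both, as set out with IGFBP7 and its antisense gene. IRAIN gave 16 and 30 counts in control, 0 and 5 in shControl, 9 and 6 in shMETTL3 and 4 and 6 in shMETTL14. Control was above the senescent libraries, with a change of -2.77 in senescence (standard error 0.711, adjusted p = 0.0043). The call ended without control library 2 (-2.26) or shControl library 1 (-1.83), and without shControl library 2 the remaining shControl library is at 0 (adjusted p over 15 alternatives from 4.7e-05 to 0.12). The nearest tested genes differed from IGF1R. ARRDC4, 674.7 kb before it, was 2.08 higher in senescence (adjusted p = 1.2e-06). SYNM, 137.5 kb after it, was not called in senescence (-0.33) and was 1.19 higher in shMETTL3 (adjusted p = 0.029), a call that ended with DESeq2 (1.22) and without shControl library 1 (1.18) or 2 (1.18) or shMETTL3 library 1 (0.66).

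Among the binding proteins, IGFBP3, the main carrier of IGFs in serum and a known p53 target, lies on chromosome 7 (45951844 to 45960871, minus strand). It gave 41 and 43 counts in control, 92 and 76 in shControl, 19 and 17 in shMETTL3 and 66 and 60 in shMETTL14. The shMETTL3 libraries were the lowest of all, below control, and shMETTL14 lay between control and shControl, with no overlap. Means were 36.9 ± 0.804, 96.7 ± 17.1, 17.8 ± 2.37 and 64.6 ± 1.97 normalized counts (SD, n = 2). IGFBP3 was 2.61-fold higher in senescence (standard error 0.235 in log2, adjusted p = 4.7e-05). It was 5.40-fold lower in shMETTL3 than in shControl (log2 -2.43, standard error 0.271, adjusted p = 2.1e-07). In shMETTL14 the change was -0.58 (standard error 0.222, adjusted p = 0.063), which was called in 3 of 16 alternatives (adjusted p from 0.021 to 0.53): in the fit of these groups alone (-0.59) and without shMETTL3 library 1 (-0.58) or 2 (-0.58). It was -0.39 without shControl library 1. The knockdowns differed directly, with IGFBP3 3.62-fold higher in shMETTL14 than in shMETTL3 (standard error 0.283 in log2, adjusted p = 1.1e-05). Against control, IGFBP3 was lower in shMETTL3 (-1.05, adjusted p = 0.0066) and higher in shMETTL14 (0.81, adjusted p = 0.0094). DESeq2 called neither (-1.02 and 0.82), and the second call also ended without control library 1 (0.79) or shMETTL14 library 1 (0.79), with adjusted p from 0.004 to 0.067 for shMETTL3 and from 0.0029 to 0.097 for shMETTL14.

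IGFBP1 and IGFBP3 lie tail to tail, 18577 bases apart, with 2 and 414 counts over all libraries. TNS3, the next tested gene after IGFBP3 at 1354 kb, was lower in senescence (-1.57, adjusted p = 4.4e-08), higher in shMETTL3 (0.80, adjusted p = 0.00096) and lower in shMETTL14 (-0.83, adjusted p = 0.0012). The shMETTL3 call of TNS3 ended without shControl library 1 (0.58), and its shMETTL14 call ended without shControl library 2 (-0.58) or shMETTL14 library 1 (-0.57). SEPT7P2, 143.2 kb before IGFBP3, was not called in any of these comparisons.

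IGFBP4, which restrains IGF action until the protease PAPPA cuts it, lies on chromosome 17 (38599676 to 38613982, plus strand). It gave 1004 and 802 counts in control, 778 and 724 in shControl, 515 and 394 in shMETTL3 and 214 and 245 in shMETTL14. In normalized counts control and shControl overlapped, shMETTL3 was below both, and shMETTL14 was lower again. Means were 794 ± 135, 863 ± 80.6, 451 ± 109 and 236 ± 31.2 (SD, n = 2). The senescence change of IGFBP4 was 0.12 (standard error 0.156, adjusted p = 0.62), and it turned to -0.04 without control library 2 and to -0.38 with library size alone (adjusted p from 0.059 to 0.95 over the alternatives). IGFBP4 was 1.91-fold lower in shMETTL3 (log2 -0.94, standard error 0.16, adjusted p = 9.1e-05). Scaled by library size alone, that change was -0.33 and not called (adjusted p from 6.7e-09 to 0.11). IGFBP4 was 3.66-fold lower in shMETTL14 (log2 -1.87, standard error 0.169, adjusted p = 5.2e-09), and the knockdowns differed by -0.93 (standard error 0.17, adjusted p = 0.0001). Both knockdown groups were also below control, by -0.82 (adjusted p = 0.00016) and -1.75 (adjusted p = 2.7e-09).

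Next to IGFBP4, 25.47 kb before it, lies TOP2A, a topoisomerase gene of dividing cells. TOP2A gave 164 and 145 counts in control, 23 and 26 in shControl, 3 and 0 in shMETTL3 and 1 and 3 in shMETTL14. TOP2A was lower in senescence (-2.27, adjusted p = 3.2e-07), where IGFBP4 was not called. It was also called lower in shMETTL3 (adjusted p = 1.3e-05) and in shMETTL14 (adjusted p = 2.8e-05) than in shControl, as was IGFBP4, and no fold is given at these counts. SMARCE1, 170.0 kb after IGFBP4, was -0.60 in senescence (adjusted p = 0.016), a call that ended with DESeq2 (-0.59) and without control library 2 (-0.43) or shControl library 1 (-0.55) or 2 (-0.64), and it was not called after either knockdown (-0.11 and -0.55).

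IGFBP5, a binding protein that also attaches to extracellular matrix, lies on chromosome 2 (217536828 to 217560272, minus strand) and had the most counts of the family. It gave 5152 and 4754 counts in control, 6156 and 6215 in shControl, 3157 and 3074 in shMETTL3 and 1194 and 1554 in shMETTL14. The groups did not overlap, and both knockdown groups fell below control. Means were 4351 ± 299, 7097 ± 255, 3079 ± 227 and 1415 ± 313 normalized counts (SD, n = 2). IGFBP5 was 1.63-fold higher in senescence (log2 0.71, standard error 0.147, adjusted p = 0.00056), and scaling by library size alone gave 0.21 and no call (adjusted p from 7.9e-14 to 0.2). It was 2.31-fold lower in shMETTL3 (standard error 0.148 in log2, adjusted p = 9.7e-07) and 5.02-fold lower in shMETTL14 (log2 -2.33, standard error 0.154, adjusted p = 1.8e-11) than in shControl. The knockdowns differed by -1.12 (standard error 0.15, adjusted p = 1.6e-06). Against control the change was -0.50 in shMETTL3 (adjusted p = 0.0078), which ended without control library 1 (-0.43, adjusted p from 0.0012 to 0.11), and -1.62 in shMETTL14 (adjusted p = 1.6e-09).

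IGFBP2 lies 7670 bases from IGFBP5, on the other strand and tail to tail with it, and had 32 counts against 31256 for IGFBP5. Beyond IGFBP2 the nearest tested gene was RPL37A, 170.6 kb from IGFBP5, which was not called in senescence (0.07) or after METTL3 (-0.28) or METTL14 (0.33) knockdown. DIRC3-AS1, 587.2 kb after IGFBP5, gave 18 and 21 counts in control, 14 and 14 in shControl, 77 and 70 in shMETTL3 and 55 and 66 in shMETTL14. It was higher in shMETTL3 (2.17, adjusted p = 6.7e-06) and in shMETTL14 (1.94, adjusted p = 4e-05), where IGFBP5 was lower.

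IGFBP6, which prefers IGF2 to IGF1 as a ligand, lies on chromosome 12 (53491436 to 53496128, plus strand) and had the fewest counts of the tested genes. It gave 63 and 62 counts in control, 16 and 22 in shControl, 18 and 28 in shMETTL3 and 63 and 39 in shMETTL14. In normalized counts shControl and shMETTL3 overlapped and were low, while control and shMETTL14 overlapped and were high. Means were 54.9 ± 1.27, 21.7 ± 3.94, 22.5 ± 5.74 and 52.0 ± 15.5 (SD, n = 2). IGFBP6 was 2.51-fold lower in senescence (log2 -1.33, standard error 0.314, adjusted p = 0.002), and the call ended without shControl library 1 (-1.15, adjusted p from 2.3e-06 to 0.054). It was 2.39-fold higher in shMETTL14 than in shControl (log2 1.26, standard error 0.321, adjusted p = 0.0056). That call ended with DESeq2 (1.26), without shControl library 1 (1.09) and without shMETTL14 library 1 (0.89), with adjusted p from 8.3e-05 to 0.18. In shMETTL3 the change was 0.06 (standard error 0.363, adjusted p = 0.93) and its sign turned without shControl library 1 (-0.12) or shMETTL3 library 2 (-0.26). The knockdowns differed by 1.20 (standard error 0.309, adjusted p = 0.0034), a difference that was not called without shMETTL14 library 1 (0.84, adjusted p from 0.00093 to 0.14). Against control, IGFBP6 was lower in shMETTL3 (-1.27, adjusted p = 0.0013) and not called in shMETTL14 (-0.07, adjusted p = 0.86; 0.21 without shMETTL14 library 2). The nearest tested genes, SPRYD3 at 18.23 kb before and CSAD at 55.32 kb after IGFBP6, were not called in senescence or after either knockdown.

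IGFBP7, a secreted protein with low affinity for IGFs that has been described in oncogene-induced senescence, lies on chromosome 4 (57897237 to 57976551, minus strand), and 97.9% of its span is intronic. It gave 250 and 240 counts in control, 295 and 294 in shControl, 680 and 854 in shMETTL3 and 113 and 216 in shMETTL14. The shMETTL3 libraries were far above all others and the shMETTL14 libraries were below shControl, but they overlapped control and lay far from each other. Means were 215 ± 8.77, 338 ± 15.2, 754 ± 80.0 and 170 ± 81.0 normalized counts (SD, n = 2). IGFBP7 was 1.57-fold higher in senescence (log2 0.65, standard error 0.189, adjusted p = 0.011). The senescence call held in 12 of 16 alternatives (adjusted p from 4.1e-07 to 0.53) and ended with library size alone (0.15), without control library 1 (0.70) or 2 (0.62) and without shControl library 1 (0.61). IGFBP7 was 2.23-fold higher in shMETTL3 than in shControl (log2 1.16, standard error 0.179, adjusted p = 2.5e-05) and 1.99-fold lower in shMETTL14 (log2 -0.99, standard error 0.197, adjusted p = 0.0005). The shMETTL14 value was -0.59 without library 1 and -1.58 without library 2 of that group. The direct difference between the knockdowns was -2.15 (standard error 0.19, adjusted p = 3.9e-09). Against control, IGFBP7 was 1.81 higher in shMETTL3 (adjusted p = 6.9e-09). In shMETTL14 it was not called (-0.34, adjusted p = 0.18). This last value was 0.10 without shMETTL14 library 1, -0.92 and called without library 2, and -0.50 and called with library size alone (adjusted p from 0.00049 to 0.75).

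The divergent gene IGFBP7-AS1 shares 624 bases with IGFBP7, 0.787% of its span, and gave 52 and 54 counts in control, 81 and 80 in shControl, 95 and 89 in shMETTL3 and 18 and 31 in shMETTL14. The shMETTL14 libraries were the lowest of all, and shControl and shMETTL3 overlapped in normalized counts. IGFBP7-AS1 was 0.99 higher in senescence (standard error 0.231, adjusted p = 0.0018), and scaling by library size alone gave 0.49 and no call. It was lower in shMETTL14 (-1.87, standard error 0.262, adjusted p = 6.4e-06) and did not pass the test in shMETTL3 (-0.02, standard error 0.214, adjusted p = 0.95), where IGFBP7 was higher. POLR2B shares 92 bases with IGFBP7 and was not called in senescence (0.28) or after METTL3 (-0.04) or METTL14 (-0.14) knockdown. Of the genes beyond, NOA1, 53.41 kb before IGFBP7, was 1.22 higher in shMETTL14 (adjusted p = 0.034), a call that ended with DESeq2 (1.23) and without shControl library 1 (1.03) or 2 (1.44) or shMETTL14 library 1 (1.00) or 2 (1.40). ADGRL3, 4090 kb after it, was 1.45 higher in shMETTL3 (adjusted p = 0.0018), and the call ended without shControl library 2 (1.25). Whether the counting kept strands apart was checked on 61 nested pairs, each an inner gene with a mean of at least 100 counts lying wholly within another that is transcribed the opposite way. In 60 of these pairs every library gave the enclosing gene at least the count of the inner gene. The command in the header of the table nevertheless sets the strand option of HOMER to minus, which asks for reads opposite to the gene, and how that setting and these counts fit together was not tested. Reads from either strand may have entered the counts and bases shared by antisense genes may count toward both.

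Near IGF1, whose own counts were too few to test, PARPBP lies 198.3 kb before it and was -1.41 in senescence (adjusted p = 0.013). The PARPBP call ended with DESeq2 (-1.41) and without control library 2 (-1.03) or shControl library 1 (-0.93), and the value was -2.14 without shControl library 2. NT5DC3, 1292 kb after IGF1, was -1.29 in senescence (adjusted p = 0.0015; -1.02 and not called without shControl library 1) and 0.95 in shMETTL14 (adjusted p = 0.028), the latter ending with DESeq2 (0.95) and without shControl library 1 (0.69) or shMETTL14 library 1 (0.41).

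The sequences before the starts are shown for IGF1R, IGFBP3, IGFBP4, IGFBP5 and IGFBP6, the tested genes with a single promoter in the source used. Promoter sequences came from RefSeq (GRCh38.p14, 250 bases before to 50 bases after each start), where 7 of the 10 genes matched by symbol with 10 promoters in all, and IGF2, IGFBP1 and IGFBP7 had no match. The last 60 bases before the start are printed 5′ to 3′ on the strand of the gene, for IGF1R at chr15:98648479-98648538 (plus), IGFBP3 at chr7:45921273-45921332 (minus), IGFBP4 at chr17:40443390-40443449 (plus), IGFBP5 at chr2:216695550-216695609 (minus) and IGFBP6 at chr12:53097607-53097666 (plus). Capitals mark a match to TATNNA between 40 and 20 bases before the start, a form of the TATA box chosen after the sequences had been seen.
IGF1R: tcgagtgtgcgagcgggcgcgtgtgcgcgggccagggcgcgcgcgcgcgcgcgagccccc
IGFBP3: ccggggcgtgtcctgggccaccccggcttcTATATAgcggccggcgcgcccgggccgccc
IGFBP4: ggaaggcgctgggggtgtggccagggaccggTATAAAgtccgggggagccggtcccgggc
IGFBP5: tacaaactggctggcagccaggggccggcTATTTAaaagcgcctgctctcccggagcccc
IGFBP6: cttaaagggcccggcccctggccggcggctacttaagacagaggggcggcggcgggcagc
The match began at position -30 in IGFBP3, -29 in IGFBP4 and -31 in IGFBP5, counted from the start. IGFBP6 reads tactta at the position of the IGFBP5 match, which differs from the form in a single letter. Since the form was chosen on these sequences, its share among other promoters is not compared. Whether it goes with the change of a gene in any comparison was not tested. Over 35116 promoters searched on both strands, TATAAA occurred anywhere in the 300 bases in 1 of the 10 promoters and in 11.5% of all, and GGGCGG in 6 of the 10 and in 45% of all. TGANTCA was in 0 of the 10 and in 7.71% of all promoters. GC content of the 250 bases before the start was 81.2% for IGF1R, 76% for IGFBP3, 71.6% for IGFBP4 and 61.2% for IGFBP5 and IGFBP6, and its median over all promoters was 58%. A match describes letters and is not a measured binding site.

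The genes most like the 3 family members with the highest mean counts were found by Pearson correlation of log2 library-scaled counts over the 8 libraries, among 3882 genes that averaged 100 counts or more. This is a description over libraries that fall in 4 groups, and no p is given. For IGFBP5 they were TXNDC5 (r = 0.992), UGGT1 (0.991) and the readthrough gene BLOC1S5-TXNDC5 (0.990), which contains TXNDC5. TXNDC5 changed by -0.90 in shMETTL14 against shControl, less than IGFBP5. For IGFBP4 they were MLEC (0.989), COL6A3 (0.985) and KPNB1 (0.983), and COL6A3 changed by -0.12 in senescence, -0.78 in shMETTL3 and -1.60 in shMETTL14. For IGF1R they were FARP1 (0.994), C9orf3 (0.991) and COL1A1 (0.987), and COL1A1 changed by -1.49 in senescence, 0.22 in shMETTL3 and -0.56 in shMETTL14.

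The wider IGF pathway was read from 75 other genes, which include the 4 antisense and imprinted neighbours IGF2-AS, H19, IGFBP7-AS1 and IRAIN. Of the 75 genes, 62 were tested. Of these, 12 were higher and 11 lower in senescence, 10 higher and 12 lower with shMETTL3, and 12 higher and 14 lower with shMETTL14. Of all tested genes, 13.3% were higher and 13.3% lower in senescence, 12.3% and 11.2% with shMETTL3 and 9.15% and 12% with shMETTL14, and the counts of the lists below are to be read beside these shares. Their median log2 fold changes were 0.00, 0.00 and -0.07, against -0.03, -0.03 and 0.00 for all genes. Among other ligands and receptors, 3 of 5 were tested, INS-IGF2 included. IGF2R, which takes up IGF2 for degradation, gave 950 and 928 counts in control and 1277 and 1277 in shControl. It was 0.83 higher in senescence (adjusted p = 1.9e-05), and with library size alone it was 0.33 and not called. The insulin receptor gene INSR gave 20 and 21 counts in shControl and 3 and 13 in shMETTL14, a change of -1.50 (adjusted p = 0.025). The INSR call ended with DESeq2 (-1.51) and without shControl library 1 (-1.49) or 2 (-1.51) or shMETTL14 library 1 (-0.79), and the value was -2.92 without shMETTL14 library 2.

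Of 10 genes that set the availability of IGFs, 8 were tested. In senescence 3 were higher and 1 lower, in shMETTL3 2 were higher and 1 lower, and in shMETTL14 1 was higher and 5 lower, with medians of 0.50, -0.18 and -0.71. STC1, a stanniocalcin that inhibits PAPPA, gave 146 and 120 counts in control, 3361 and 3125 in shControl, 2952 and 2900 in shMETTL3 and 1798 and 1943 in shMETTL14. STC1 was 31.8-fold higher in senescence (adjusted p = 2.2e-18) and -0.96 in shMETTL14 (adjusted p = 1.3e-05). The related STC2 was -1.08 in shMETTL3 (adjusted p = 3.4e-06) and -0.95 in shMETTL14 (adjusted p = 1.7e-05). In senescence STC2 was -0.37 (adjusted p = 0.041), called in 8 of 16 alternatives (adjusted p from 1.9e-05 to 0.25) and not without any library of control or shControl (-0.40 to -0.33). PAPPA, the protease that cuts IGFBP4, gave 1000 and 1036 counts in shControl, 1245 and 1197 in shMETTL3 and 428 and 552 in shMETTL14, and was lower in shMETTL14 (-1.21, adjusted p = 7.6e-07). ADAM12, a metalloprotease that cuts IGFBP3 and IGFBP5, was higher in senescence (1.64, adjusted p = 7.3e-09) and higher again in shMETTL3 (0.85, adjusted p = 4.7e-05). In shMETTL14 ADAM12 was lower (-0.54, adjusted p = 0.0095), ending with DESeq2 (-0.55), with library size alone (-0.20) and without shControl library 2 (-0.50) or shMETTL14 library 1 (-0.48). Other calls rested on fewer analyses. PAPPA2, with 8 and 4 counts in shControl and 26 and 19 in shMETTL14, was 1.72 higher there (adjusted p = 0.029). The PAPPA2 call ended with DESeq2 (1.73) and without any library of shControl or shMETTL14 (1.27 to 2.34). HTRA1, a serine protease, was 0.67 higher in shMETTL3 (adjusted p = 0.013), ending with DESeq2 (0.69) and without shControl library 1 (0.66) or 2 (0.65) or shMETTL3 library 1 (0.53). CTSD, a lysosomal protease, was 0.68 higher in senescence (adjusted p = 0.0021), ending with library size alone (0.19) and without shControl library 1 (0.61).

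Of 18 adaptor genes, 15 were tested, with 3 higher and 2 lower in senescence, 2 higher and 6 lower in shMETTL3 and 2 higher and 2 lower in shMETTL14, and medians of 0.04, -0.38 and 0.00. SOCS3, a feedback inhibitor of cytokine and insulin signalling, gave 44 and 43 counts in control, 122 and 105 in shControl, 38 and 29 in shMETTL3 and 112 and 86 in shMETTL14. It was 3.40-fold higher in senescence (adjusted p = 5.1e-07) and 3.93-fold lower in shMETTL3 than in shControl (adjusted p = 4.8e-07), and in shMETTL14 it was not called (-0.36, adjusted p = 0.2). SHC1, an adaptor toward RAS, was 0.91 higher in senescence (adjusted p = 7.8e-05), -0.83 in shMETTL3 (adjusted p = 0.00038) and -0.54 in shMETTL14 (adjusted p = 0.016). With library size alone these SHC1 values were 0.41, -0.23 and -0.18 and none was called, and the shMETTL14 call also ended with DESeq2 (-0.54) and without shControl library 1 (-0.41) or shMETTL14 library 2 (-0.50). GAB1, a docking protein, was -0.95 in senescence (adjusted p = 0.00081) and 0.89 in shMETTL3 (adjusted p = 0.0025). Without shControl library 1 the GAB1 values were -0.69 and 0.63 and not called, and without shMETTL3 library 2 the latter was 0.51 and not called. IRS1, the insulin receptor substrate, was -0.89 in senescence (adjusted p = 1.1e-05) and -0.57 in shMETTL3 (adjusted p = 0.0061), the latter ending without shControl library 2 (-0.44) and with library size alone (0.04, which is -0.54 against the shifted median). In shMETTL14 IRS1 was -0.56 (adjusted p = 0.0077), ending with library size alone (-0.21) and without shControl library 2 (-0.42) or shMETTL14 library 2 (-0.50). RACK1, a scaffold protein, was 0.46 in shMETTL14 (adjusted p = 0.017), ending with DESeq2 (0.46) and without shControl library 1 (0.45) or 2 (0.47) or shMETTL14 library 1 (0.33).

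Of 28 genes of the PI3K-AKT-FOXO branch, 26 were tested, with 2 higher and 3 lower in senescence, 6 higher and 2 lower in shMETTL3 and 6 higher and 2 lower in shMETTL14, and medians of -0.18, 0.16 and 0.00. INPP4B, a phosphoinositide phosphatase that opposes AKT, gave 237 and 275 counts in control, 87 and 81 in shControl, 255 and 303 in shMETTL3 and 307 and 290 in shMETTL14. The shControl libraries were the lowest. INPP4B was -1.22 in senescence (adjusted p = 1.1e-06), 1.51 in shMETTL3 (adjusted p = 8.6e-08) and 1.67 in shMETTL14 (adjusted p = 1.2e-08). PIK3R3, a regulatory subunit of PI3K, was -0.86 in senescence (adjusted p = 0.0012) and 1.39 in shMETTL3 (adjusted p = 4.2e-06). RICTOR, of an mTOR complex that acts on AKT, was 0.60 higher in senescence (adjusted p = 0.0023), ending with library size alone (0.11) and without control library 1 (0.48), and it was 0.84 higher in shMETTL3 (adjusted p = 6.4e-05). GSK3A, a kinase that AKT inhibits, was 0.99 in shMETTL14 (adjusted p = 0.0081), ending with DESeq2 (0.99) and without shControl library 1 (0.83) or shMETTL14 library 1 (0.96). AKT2 was 0.51 in shMETTL14 (adjusted p = 0.048), which was called in 8 of 16 alternatives (adjusted p from 0.0018 to 0.27) and not with DESeq2 (0.51), without the low-count filter (0.51) or without any library of control, shControl or shMETTL14 (0.44 to 0.58).

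**Figure D4:**
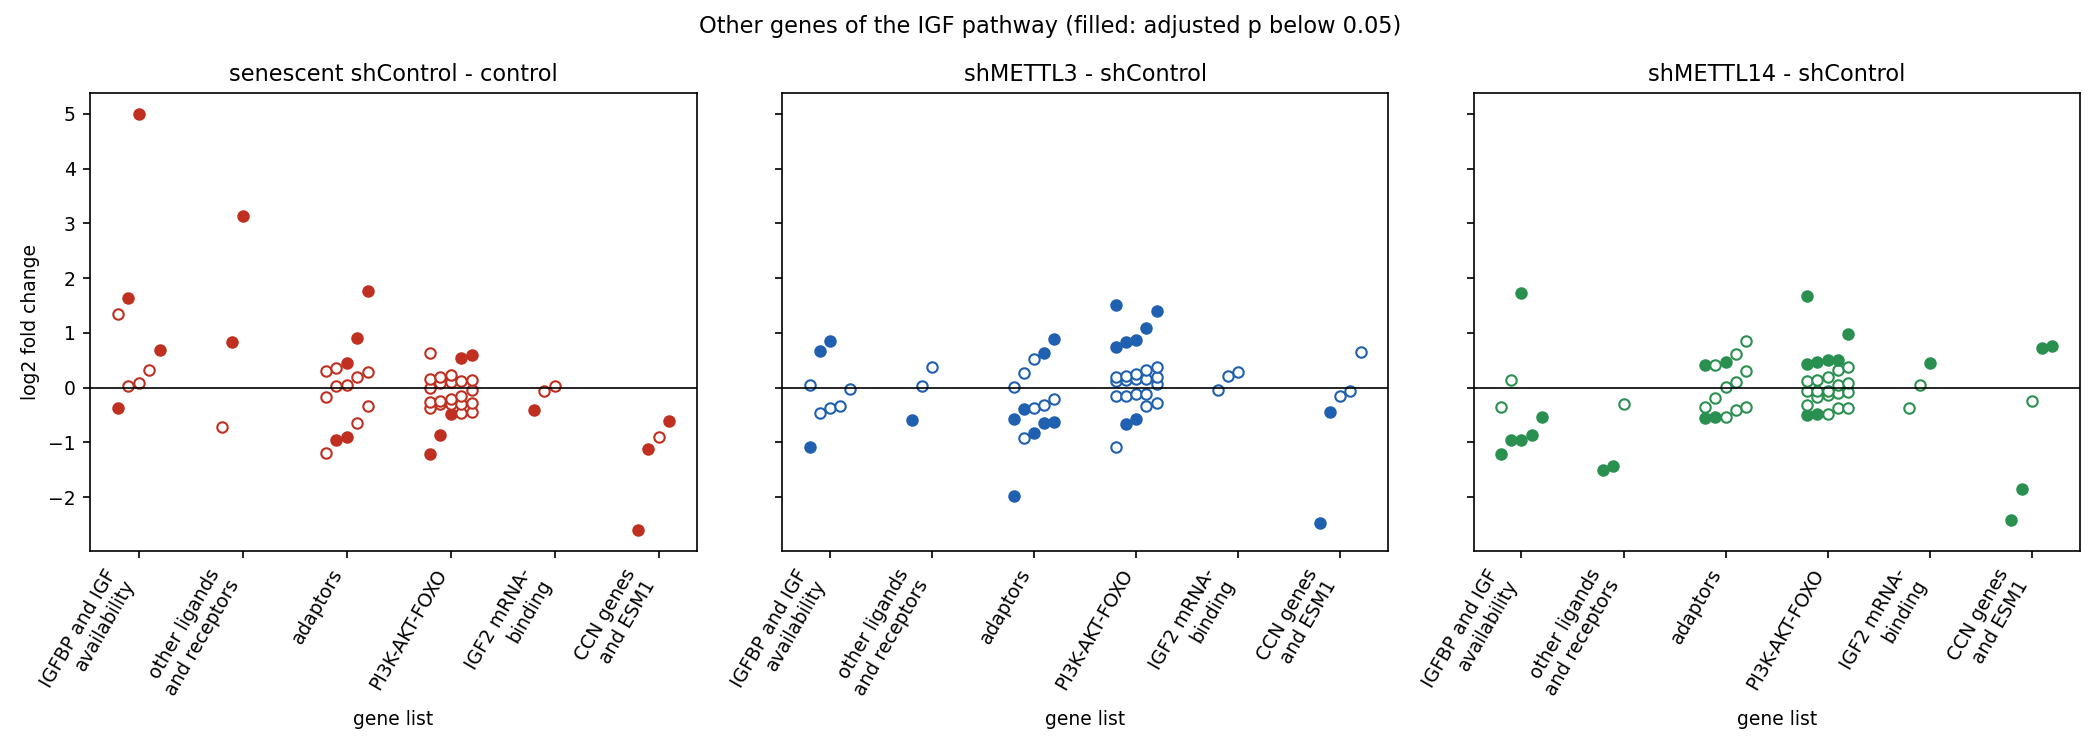
Log2 fold change (vertical axis) of the tested genes of 6 pathway lists in 3 comparisons, with filled symbols where the adjusted p was below 0.05. STC1 is the point at 4.99 in senescence and the point at 3.14 is INS-IGF2, which has the counts of IGF2; ESM1 is left out in senescence, where its control libraries are at 0.

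The IGF2 mRNA-binding proteins, which bind m6A-modified RNA, were all tested. IGF2BP3 was -0.40 in senescence (adjusted p = 0.025), which was called in 10 of 16 alternatives (adjusted p from 1.2e-05 to 0.16) and neither with DESeq2 (-0.39), nor without the low-count filter (-0.38), nor without a control library (-0.42 and -0.37) or an shControl library (-0.40 and -0.38). IGF2BP2 was 0.44 in shMETTL14 (adjusted p = 0.017), ending without shControl library 1 (0.39) or 2 (0.49) or shMETTL14 library 1 (0.35). IGF2BP1 was not called in any of the 3 comparisons (0.04, 0.22 and 0.04).

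Secreted relatives with an IGFBP-like domain were tested for 5 of 7 genes, with 1 higher and 3 lower in senescence, 2 lower in shMETTL3 and 2 higher and 2 lower in shMETTL14, and medians of -0.90, -0.16 and -0.24. ESM1 gave 0 and 0 counts in control, 31 and 51 in shControl, 6 and 11 in shMETTL3 and 10 and 7 in shMETTL14. ESM1 was at least 17.7-fold higher in shControl than a floor of 3 counts per control library, and it was lower in shMETTL3 (-2.47, adjusted p = 0.00018) and shMETTL14 (-2.41, adjusted p = 0.00026), though DESeq2 gave no adjusted p for the former. WISP1 gave 154 and 133 counts in control, 14 and 22 in shControl and 7 and 4 in shMETTL14, and was -2.61 in senescence (adjusted p = 1.8e-08) and -1.85 in shMETTL14 (adjusted p = 0.0046). The latter ended without shControl library 2 (-1.54) or shMETTL14 library 2 (-1.54). CTGF, a matrix-associated protein of the CCN family, was -1.13 in senescence (adjusted p = 5.1e-07) and -0.44 in shMETTL3 (adjusted p = 0.037). The shMETTL3 call of CTGF ended with DESeq2 (-0.42) and without shControl library 1 (-0.52) or 2 (-0.38) or shMETTL3 library 2 (-0.41), and with library size alone it was 0.17, which is -0.41 against the shifted median of all genes. In shMETTL14 CTGF was higher (0.73, adjusted p = 0.00048). CYR61, of the same family, was 0.76 higher in shMETTL14 (adjusted p = 0.0005) and -0.60 in senescence (adjusted p = 0.0031), the latter not called without control library 1 (-0.55) or shControl library 1 (-0.59).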

How the data were processed

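The deposited table holds the authors' raw counts per gene, made with HOMER (strand option set to minus) over whole genes on reads aligned to hg19 with STAR, with replicates kept apart and no normalization; the counts were used as they are. Genes were found by symbol. The edgeR package (4.0.16, R 4.3.3) was run on all 8 libraries in a single fit of the 4 groups: filterByExpr with a minimum count of 10 left 12844 of 27945 genes (6423 had no count), libraries were scaled by TMM, and the quasi-likelihood F test was applied to 6 comparisons with Benjamini-Hochberg adjustment over all tested genes at 0.05. The biological coefficient of variation was 10.6%. The code was tested on simulated data. Figures were drawn with matplotlib (3.10.9). Depth, 1513930 to 2048475 counts per library outside ribosomal RNA, limits genes with few counts.

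As alternatives, upper-quartile scaling, scaling by library size alone and DESeq2 (1.42.0) with its own size factors and filtering were run, and also no filter, at least 10 counts in every library, a fit of the groups compared alone, the replicate number as a block, removal of the 21 ribosomal RNA entries, a threshold of 0.01, and each library left out in turn. A left-out library leaves a group with 1 library, which is then assumed to vary like the others.

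The 10 genes and the gene lists were chosen with earlier results of these data known. Named genes are METTL3, METTL14 and the 10 genes, up to 3 called genes per pathway list and main comparison with the largest change, genes that overlap the 10, the nearest tested gene on each side, and for the 3 with the highest mean count the 3 most correlated genes without shared bases. A gene that this rule selects is not reported here. IGF2BP1, INS, H19 and the markers given as examples were named, and senescence markers split into those known to rise or fall, after their values were seen. A floor of 3 counts per library stands in for 0, and intervals are 95% Poisson intervals. Promoter sequences are from RefSeq. The spike-in was not used here.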

Additional observations from a re-analysis of the deposited data

Results flagged for a closer look

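A direct test of shMETTL14 against shMETTL3 (edgeR, adjusted over all tested genes) found that the knockdowns differed from each other at each of the 7 tested IGF genes, where 16.5% of all tested genes were higher and 18.7% lower. On the log2 scale, the difference was -0.84 for IGF2, -0.79 for IGF1R, -0.93 for IGFBP4, -1.12 for IGFBP5 and -2.15 for IGFBP7, which were lower with shMETTL14, and 1.86 for IGFBP3 and 1.20 for IGFBP6, which were higher. Without shMETTL14 library 1 the differences of IGF2 (-0.71) and IGFBP6 (0.84) did not pass the test. In the same comparison 7 of 11 fibroblast markers were lower (median -1.08) and the epithelial markers KRT18 (1.63) and KRT8 (1.38) were higher, and the part of such shifts in these differences was not tested. With 2 libraries in a group, no library was tested for standing apart.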

How the results depend on the processing

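Over the 6 comparisons, the 7 tested genes gave 336 values without 1 library, of which 312 kept their direction and side of the threshold, 16 lost their call, 3 gained a call and 5 reversed. Under the other alternatives 322 of 336 values kept both, 9 lost their call, 3 gained a call and 2 reversed. These values do not cover the threshold of 0.01. At 0.01, 3 genes were higher and 2 lower in senescence (IGFBP7 no longer called), 1 and 3 in shMETTL3 (IGF2) and 1 and 4 in shMETTL14 (IGF1R), and the other 3 comparisons kept their counts. The cause of each change was not tested.

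With library size alone, 2 genes were higher and 2 lower in senescence, 2 and 2 in shMETTL3, and 1 and 4 in shMETTL14. In shMETTL14 against control 2 were higher and 4 lower. All genes then split into 752 higher and 5015 lower in senescence (1711 and 1702 with TMM), 5287 and 353 in shMETTL3 (1574 and 1434), 3163 and 709 in shMETTL14 (1175 and 1545) and 1177 and 3486 between the knockdowns (2118 and 2399). Reversed values under that scaling were IGFBP4 in senescence (-0.38), IGF2 and INS-IGF2 in shMETTL3 (0.03) and CTGF (0.17) and IRS1 (0.04) in shMETTL3. Read against the shifted median of all genes, IGFBP4 was 0.15, IGF2 and INS-IGF2 -0.55, CTGF -0.41 and IRS1 -0.54, all in the same direction as with TMM. With DESeq2, 0 genes were higher in shMETTL14 than in shControl, where edgeR called 1. At an unadjusted p below 0.05 it was 1, IGFBP6 at 1.26 with an adjusted p of 0.057. Against shControl, DESeq2 called 3 lower in shMETTL3 and 4 in shMETTL14 (4 and 5 with edgeR). Against control, it called 1 higher in shMETTL14 and 4 lower in shMETTL3 (2 and 5 with edgeR). Fewer of all genes were called (1138 higher and 795 lower in senescence, 911 and 644 in shMETTL3, 489 and 878 in shMETTL14).

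Leaving out 1 library gave 3 to 4 genes higher and 1 to 2 lower in senescence, 1 higher and 3 to 4 lower in shMETTL3, and 0 to 1 higher and 4 to 6 lower in shMETTL14. Between the knockdowns it gave 1 to 2 higher and 4 to 5 lower, in shMETTL3 against control 2 higher and 4 to 5 lower, and in shMETTL14 against control 1 to 2 higher and 3 to 4 lower. Values that reversed without 1 library ranged from -0.04 to 0.31 for IGFBP4 in senescence, from -0.26 to 0.27 for IGFBP6 in shMETTL3, and in shMETTL14 against control from -0.40 to 0.21 for IGFBP6 and from -0.92 to 0.10 for IGFBP7.

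With the replicate number as a block, no call of the 7 genes changed. Residuals of libraries that share only a number correlated at -0.039 to 0.101 across genes between groups, so the numbers were not used to pair libraries. Within groups the variance between libraries was 1.72 times counting noise in control, 1.56 in shControl, 5.26 in shMETTL3 and 2.52 in shMETTL14. The main fit shares its estimate of the spread across the 4 groups. The part of the wider spread of shMETTL3 in its calls, those between the knockdowns included, was not tested.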
